A study of Homo sapiens and Mus musculus with 33 samples.

Results

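The histone deacetylases (HDACs) outside class I and the sirtuins comprise the class IIa genes HDAC4, HDAC5, HDAC7 and HDAC9, the class IIb genes HDAC6 and HDAC10, and HDAC11, the single class IV gene. These 7 genes were taken by name from the RNA table of a human colon carcinoma line, and their orthologues by name from the RNA table of mouse colon epithelium; each ChIP-seq peak that lay in the interval of a member or within 2 kb of it was assigned to that member. The RNA tables held 35805 and 25965 rows, of which the members took 7 human and 8 mouse rows, since Hdac4 was split into a main row and a short row. The members had 37 of the 40266 peaks of the human line, 15 of the 30338 H3K18cr peaks of the mouse colon and 16 of its 27035 H3K4me3 peaks, and each of these overlapped the interval itself.

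HCT116 cells, an epithelial colon carcinoma line, were given 5 µM MS275 (entinostat, an inhibitor of class I HDACs) or the vehicle DMSO over 18 h. Poly(A) RNA was sequenced in 4 libraries of each treatment. Chromatin was precipitated with antibodies to crotonylated or acetylated lysine 18 of histone H3 (H3K18cr, H3K18ac), with 3 libraries of each mark and treatment and 1 input library of each treatment. Untreated colon epithelium of C57BL/6 mice gave 3 RNA libraries, 3 H3K4me3 libraries with 1 input, and 2 H3K18cr libraries with 2 inputs; the age of the mice is not given in the sources used here. All human libraries came from 1 cell line. The methods of the study call the RNA replicates biological, with 1 mouse to each colon library. For HCT116 ChIP they give fewer biological replicates than the 3 libraries of each mark and treatment analysed here, without saying which libraries these are. Their section on ChIP-seq analysis gives a number for H3K18cr and none for H3K18ac, while a figure legend gives n = 3 for both marks. P-values for HCT116 ChIP therefore measure the spread between libraries, which may in part be technical. By the methods, colon chromatin was pooled from 3 animals before precipitation, which they state for H3K18cr by name, and the H3K4me3 replicates were biological. A figure legend gives 2 mice for the colon ChIP-seq instead. An SD over colon ChIP libraries is therefore not to be read as a spread between single mice.

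The RNA libraries held 35608533 to 53415604 counts in HCT116 and 8166406 to 10707901 counts in the colon. All 8 epithelial markers were detected in the colon, with a summed level of 13882 to 18896 CPM (counts scaled by the library total), against 49.1 to 74.3 CPM for 6 immune, 38.0 to 60.9 CPM for 4 smooth muscle and 5.60 to 6.29 CPM for 5 stromal markers; Pdgfra had no count. In HCT116 the epithelial sum was 2829 to 3893 CPM with DMSO and 3591 to 4340 CPM with MS275, and the stromal sum was 5.37 to 8.37 CPM with DMSO and 10.6 to 17.8 CPM with MS275. COL1A1 made up most of the stromal sum. The part of this shift in the members' values was not tested. VIL1 and MUC2, markers of differentiated epithelium, were at or below 1.28 CPM in every HCT116 library. Of counts from 1 to 19, 52.3 to 58.2% were odd numbers in DMSO replicates 1 and 3 and MS275 replicate 1, and 73.6 to 81.8% in the other 5 HCT116 libraries and 76.1 to 77.8% in the 3 colon libraries, for a reason not given in the sources used here. Low counts of the colon, such as those of Hdac9, fall in that range, and the part of this in their values was not tested. Unpaired log2 fold changes within those 5 HCT116 libraries alone are given beside the members.

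Class IIa HDACs are signal-dependent corepressors with little deacetylase activity of their own. They bind MEF2 transcription factors through an N-terminal extension, act within larger corepressor complexes, and leave the nucleus bound to 14-3-3 proteins once calcium/calmodulin-dependent kinases, protein kinase D or salt-inducible kinases have phosphorylated them. HDAC6 is a largely cytoplasmic enzyme that deacetylates α-tubulin and cortactin and binds ubiquitin, HDAC10 removes acetyl groups from polyamines, and HDAC11 removes long fatty acyl groups from lysine. None of them is a main target of MS275, so the comparisons ask how the genes of the untargeted HDACs were expressed and marked when class I was inhibited.

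The start regions of the members are shown because the peaks over them differed in width, in level and in response to MS275. RefSeq start windows of GRCh38.p14, running from 250 bases before to 50 bases after a start, were found for 6 of the 7 members (16 windows, 12 of them with the start inside a member's peak in HCT116); HDAC5 had none. Windows are numbered along each gene. In the sequences below, read 5′ to 3′ on the strand of the gene, capitals mark CpG dinucleotides, except in HDAC9 window 1, where they mark a match to the MEF2 element. HDAC4 window 1 (chr2:239401600-239401899, minus strand) held 40 CpG, a number at or above that of 93.3% of all 35116 RefSeq windows, whereas HDAC4 window 3 (chr2:239274732-239275031, minus strand), inside a broad peak far within the gene, held 3. HDAC6 window 2 (chrX:48801699-48801998, plus strand) held 36, HDAC7 window 1 (chr12:47819854-47820153, minus strand) 33, HDAC10 window 1 (chr22:50251216-50251515, minus strand) 40 and HDAC11 window 1 (chr3:13480056-13480355, plus strand) 30. HDAC9 had the most, 41, in its first window (chr7:18086575-18086874, plus strand), and none in window 5 (chr7:18509020-18509319, plus strand), although a peak lay over both starts. The median over all windows was 14 CpG.
HDAC4 window 1: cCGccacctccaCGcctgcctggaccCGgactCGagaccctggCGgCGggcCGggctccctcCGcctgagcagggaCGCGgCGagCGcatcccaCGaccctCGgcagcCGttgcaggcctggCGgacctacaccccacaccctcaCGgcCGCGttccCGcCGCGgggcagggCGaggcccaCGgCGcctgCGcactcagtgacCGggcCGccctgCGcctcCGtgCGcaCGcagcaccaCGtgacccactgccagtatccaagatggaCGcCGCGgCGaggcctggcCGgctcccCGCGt
HDAC4 window 3: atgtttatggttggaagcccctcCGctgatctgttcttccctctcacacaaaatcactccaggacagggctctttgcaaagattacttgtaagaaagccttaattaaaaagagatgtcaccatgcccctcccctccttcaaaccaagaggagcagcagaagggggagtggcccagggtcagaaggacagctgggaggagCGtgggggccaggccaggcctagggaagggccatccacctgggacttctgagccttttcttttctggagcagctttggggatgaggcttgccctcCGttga
HDAC6 window 2: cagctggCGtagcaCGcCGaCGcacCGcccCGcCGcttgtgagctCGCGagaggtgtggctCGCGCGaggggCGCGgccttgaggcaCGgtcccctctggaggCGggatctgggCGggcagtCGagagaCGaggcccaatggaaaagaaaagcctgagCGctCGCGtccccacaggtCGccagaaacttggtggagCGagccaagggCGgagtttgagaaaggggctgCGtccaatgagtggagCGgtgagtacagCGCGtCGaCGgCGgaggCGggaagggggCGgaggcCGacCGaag
HDAC7 window 1: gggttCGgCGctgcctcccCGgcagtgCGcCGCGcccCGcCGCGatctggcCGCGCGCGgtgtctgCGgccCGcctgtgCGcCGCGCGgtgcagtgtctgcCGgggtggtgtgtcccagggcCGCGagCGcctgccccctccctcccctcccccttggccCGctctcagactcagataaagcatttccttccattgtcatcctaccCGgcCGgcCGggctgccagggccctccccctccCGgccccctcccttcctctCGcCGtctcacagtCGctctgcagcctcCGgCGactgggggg
HDAC9 window 1: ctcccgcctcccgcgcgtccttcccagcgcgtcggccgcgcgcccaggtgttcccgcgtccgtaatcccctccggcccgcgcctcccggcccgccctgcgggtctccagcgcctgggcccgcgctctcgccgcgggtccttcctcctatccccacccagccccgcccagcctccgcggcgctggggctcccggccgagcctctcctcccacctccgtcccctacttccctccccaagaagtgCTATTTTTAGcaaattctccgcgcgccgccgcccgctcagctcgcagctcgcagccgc
HDAC9 window 5: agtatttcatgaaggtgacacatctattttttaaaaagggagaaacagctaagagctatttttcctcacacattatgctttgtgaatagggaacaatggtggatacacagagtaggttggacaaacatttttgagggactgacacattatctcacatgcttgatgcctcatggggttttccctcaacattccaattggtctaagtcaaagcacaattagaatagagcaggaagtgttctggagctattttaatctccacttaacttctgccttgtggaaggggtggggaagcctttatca
HDAC10 window 1: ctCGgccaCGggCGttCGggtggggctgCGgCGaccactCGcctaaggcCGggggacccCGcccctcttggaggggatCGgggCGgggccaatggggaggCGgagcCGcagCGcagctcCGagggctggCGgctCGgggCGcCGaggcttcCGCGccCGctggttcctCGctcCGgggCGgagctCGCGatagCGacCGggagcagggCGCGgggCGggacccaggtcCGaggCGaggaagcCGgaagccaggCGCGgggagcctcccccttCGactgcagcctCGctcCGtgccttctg
HDAC11 window 1: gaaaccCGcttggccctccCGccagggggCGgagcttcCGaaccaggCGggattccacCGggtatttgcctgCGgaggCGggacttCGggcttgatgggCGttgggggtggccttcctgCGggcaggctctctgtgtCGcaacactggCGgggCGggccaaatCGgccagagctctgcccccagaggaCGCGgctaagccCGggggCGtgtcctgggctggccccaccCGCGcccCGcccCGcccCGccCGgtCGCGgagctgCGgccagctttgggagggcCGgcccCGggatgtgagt

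Both strands of each window were searched for 4 short sequences. The MEF2 element was found in 1 of the 16 member windows, HDAC9 window 1, where the same bases match on both strands; 1.86% of all windows hold it. GGGCGG, the GC box, was in 7 member windows and in 45.0% of all windows, CCAAT in 6 and in 34.6%, and TATAAA in none and in 11.5%. A match is a description of these letters and not a bound site.

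In untreated colon epithelium Hdac11 was the most abundant member per kb of exon. Its level was 19.9, 18.1 and 21.1 CPM per kb in the 3 libraries, all above every other member. Before division by exon length, Hdac5 (mean 81.3 CPM) was above Hdac11 (75.7 CPM). In such bulk libraries fewer cells of a type and less RNA per cell cannot be told apart. Hdac10 followed at 10.6, 10.2 and 9.73 CPM per kb and Hdac5 at 9.93, 9.26 and 8.59 CPM per kb, and the ranges of these neighbours overlapped. Hdac6 stood apart below them at 5.35, 5.07 and 5.83 CPM per kb. Hdac7 was at 2.94, 3.32 and 3.62 and Hdac4 at 3.17, 2.91 and 2.62 CPM per kb, again with overlapping ranges. Hdac9 was lowest, with 5, 9 and 3 reads in the 3 libraries. Its level of 0.0846, 0.116 and 0.0427 CPM per kb did not overlap with any other member, but its row spans 157387 bp of a gene that GENCODE M21 gives as 869516 bp, so reads from the rest of the gene were not counted in it. The short Hdac4 row of 2392 bp, which lies at the distal end of the annotated gene, was at 8.19, 8.004 and 5.60 CPM per kb.

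The order per kb of exon differed in HCT116 cells. With DMSO, HDAC5 was highest at a mean of 7.18 ± 1.62 CPM per kb (SD, n = 4), followed by HDAC10 at 3.44 ± 2.26, HDAC7 at 2.56 ± 0.608, HDAC11 at 2.31 ± 0.344, HDAC6 at 1.76 ± 0.501 and HDAC4 at 1.51 ± 0.537 CPM per kb. Each of these overlapped with the next in the order. That order depends on exon length, which was 14472 bp for HDAC6 and 5817 bp for mouse Hdac6. Before division by length, HDAC6 (mean 25.5 CPM) and HDAC4 (21.4 CPM) were above HDAC10 (17.0 CPM) and HDAC11 (12.1 CPM). HDAC9 alone stood apart, at 0.146 ± 0.0646 CPM per kb. Among all 15842 genes with a count in these libraries, HDAC5 was at percentile 68.5 of the level per kb and HDAC9 at percentile 23.8. For comparison, the class I gene HDAC1 was at 81.4 ± 13.6 CPM per kb, HDAC3 at 19.8 ± 1.58 and HDAC2 at 15.2 ± 2.81, with means above those of every member. HDAC8, at 0.603 ± 0.232, had a mean below all members but HDAC9. In the colon Hdac11 (19.7 ± 1.52, n = 3) was close to Hdac1 (18.5 ± 1.29) and Hdac3 (22.5 ± 1.05), with Hdac2 at 13.9 ± 0.577 and Hdac8 at 2.95 ± 0.552 CPM per kb. The tables are of 2 species and were not tested against each other.

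**Figure D1:**
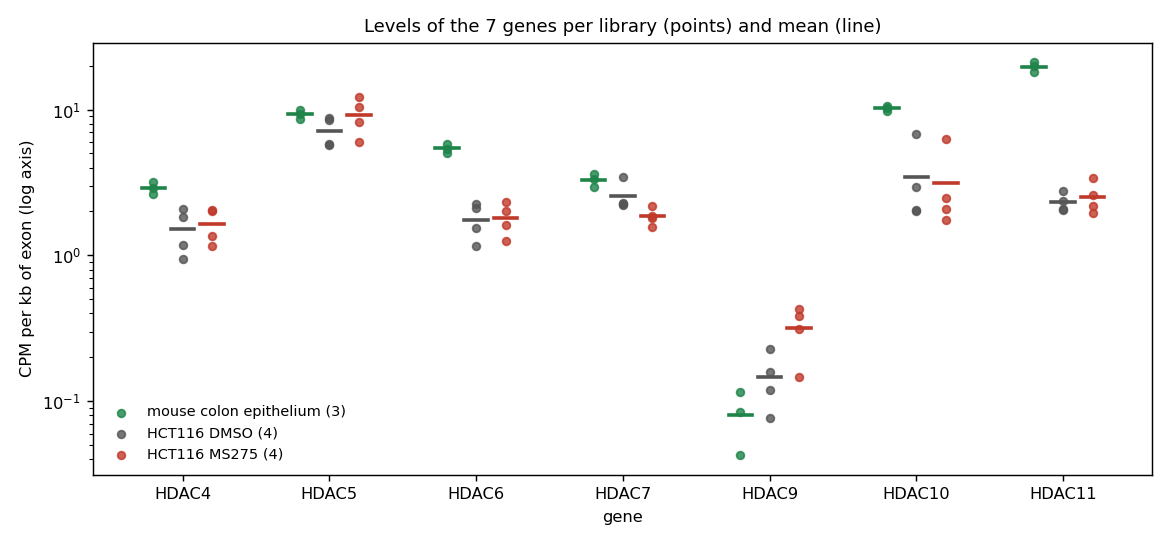
Level of each of the 7 genes in CPM per kb of exon, on a log axis, in mouse colon epithelium (3 libraries) and in HCT116 cells with DMSO or MS275 (4 libraries each); points are libraries and lines are means. HDAC11 lies highest in the colon (mean 19.7), HDAC5 highest in HCT116 with DMSO (mean 7.18), and HDAC9 lowest in every group.

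HDAC7 RNA was lower with MS275 in every pair of same-numbered libraries, and HDAC5 and HDAC9 were higher in every pair. These 3 of 7 members stand beside 37.0% of all tested genes with 4 pairs in one direction. Without pairing, edgeR called none of the 7 members at an adjusted p under 0.05; it called 1 of 14961 genes (0.00668%), and at an unadjusted p under 0.05 it had 987 genes and 1 member, HDAC9. DESeq2 without pairing also called no member. Same-numbered DMSO and MS275 libraries deviated together, so a fit that took the number as a block stands beside it. It called 14.4% of genes (7.83% higher and 6.55% lower with MS275), among them 2 of the 7 members, HDAC7 and HDAC5. DESeq2 with the block called these and HDAC9. No member had DMSO and MS275 groups that did not overlap, which 5.46% of all genes had. Levels below are CPM after TMM scaling.

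HDAC7 was at 34.8, 21, 25.3 and 21.6 CPM with DMSO (replicates 1 to 4) and at 21.2, 15.0, 19.6 and 17.4 CPM with MS275. The MS275 library was lower than its DMSO counterpart in 4 of 4 pairs, while the highest MS275 value, 21.2, lay just above the lowest DMSO value. The blocked log2 fold change was -0.46 (SE 0.13, adjusted p = 0.0290, 0.726-fold), and the unpaired one -0.48 (SE 0.22, adjusted p = 0.754). Unpaired, it was -0.30 without DMSO replicate 1 and -0.27 within the 5 libraries with mostly odd low counts. The call depended on the pairs included: the adjusted p with the block was 0.161, 0.0774, 0.0207 and 0.0760 without pair 1, 2, 3 or 4.

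HDAC5 was at 44.1, 42.5, 73.5 and 62.2 CPM with DMSO and at 44.8, 59.5, 101 and 75.1 CPM with MS275. The groups overlapped widely, with pairs 3 and 4 high in both treatments, and MS275 was higher in 4 of 4 pairs, in pair 1 by only 0.022 on the log2 scale. The blocked log2 fold change was 0.32 (SE 0.098, adjusted p = 0.0445, 1.25-fold). Without the block it was 0.35 (SE 0.28, adjusted p = 0.912), with values of 0.099 without MS275 replicate 3, 0.53 without DMSO replicate 3 and 0.62 within the 5 libraries with mostly odd low counts. The adjusted p with the block was 0.0287 without pair 1 and 0.193, 0.110 and 0.136 without pair 2, 3 or 4. Exons of G6PC3 on the opposite strand cover 24.0% of the exon bases of HDAC5, and strand use in the counting is not given in the sources used here, so reads of the pair cannot be told apart. G6PC3 was at 46.6, 56.2, 65.8 and 54.3 CPM (of library totals) with DMSO and at 45.8, 45.7, 58.8 and 48.5 CPM with MS275.

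HDAC9 was at 1.35, 3.803, 2.29 and 2.65 CPM with DMSO and at 6.47, 5.20, 2.77 and 7.08 CPM with MS275, from 60 to 304 reads a library. It was higher with MS275 in 4 of 4 pairs, by a log2 difference of 2.22 in pair 1 but 0.27 in pair 3, and MS275 replicate 3 lay within the DMSO range. The blocked log2 fold change of 1.11 (SE 0.39) did not pass the test in edgeR (adjusted p = 0.0742; 0.0224 without pair 3 and 0.320 without pair 1), and passed it in DESeq2 with the block (adjusted p = 0.0436). The unpaired log2 fold change was 1.10, and 0.66 within the 5 libraries with mostly odd low counts.

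HDAC4 was at 17.0, 28.3, 14.7 and 25.3 CPM with DMSO and at 16.0, 27.6, 21.01 and 27.0 CPM with MS275, higher in 2 of 4 pairs. HDAC6 was at 22.5, 29.3, 18.6 and 31.3 CPM and at 22.8, 27.8, 20.0 and 31.7 CPM. Its pairs differed by at most 0.11 on the log2 scale, the smallest spread of the members. HDAC11 was at 10.8, 13.9, 11.9 and 11.98 CPM and at 11.1, 9.81, 19.5 and 12.8 CPM. The unpaired log2 fold change was -0.059 for HDAC4, -0.17 for HDAC6 and 0.16 for HDAC11 in the 5 libraries with mostly odd low counts alone. For these 3 genes the blocked log2 fold changes were 0.13 (SE 0.14), 0.028 (SE 0.11) and 0.098 (SE 0.19), and none passed the test (adjusted p = 0.583, 0.905 and 0.789).

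HDAC10 was at 14.8, 9.72, 37.0 and 9.59 CPM with DMSO and at 9.98, 11.7, 34.0 and 8.15 CPM with MS275. Replicate 3 was far above the others in both treatments, and the unpaired log2 fold change of -0.14 (SE 0.55) became 0.52 without DMSO replicate 3 and -0.86 without MS275 replicate 3. Within the 5 libraries with mostly odd low counts it was 0.94. The blocked log2 fold change was -0.16 (SE 0.16, adjusted p = 0.561). MAPK12, a gene on the same strand whose exons cover 55.8% of the exon bases of HDAC10, was examined after these values were seen and was also high in replicate 3, at 114 CPM (of library totals) with DMSO and 129 CPM with MS275, against 47.4 to 69.3 CPM in the other libraries, so the level of HDAC10 is uncertain to the extent that reads of these genes were shared.

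**Figure D2:**
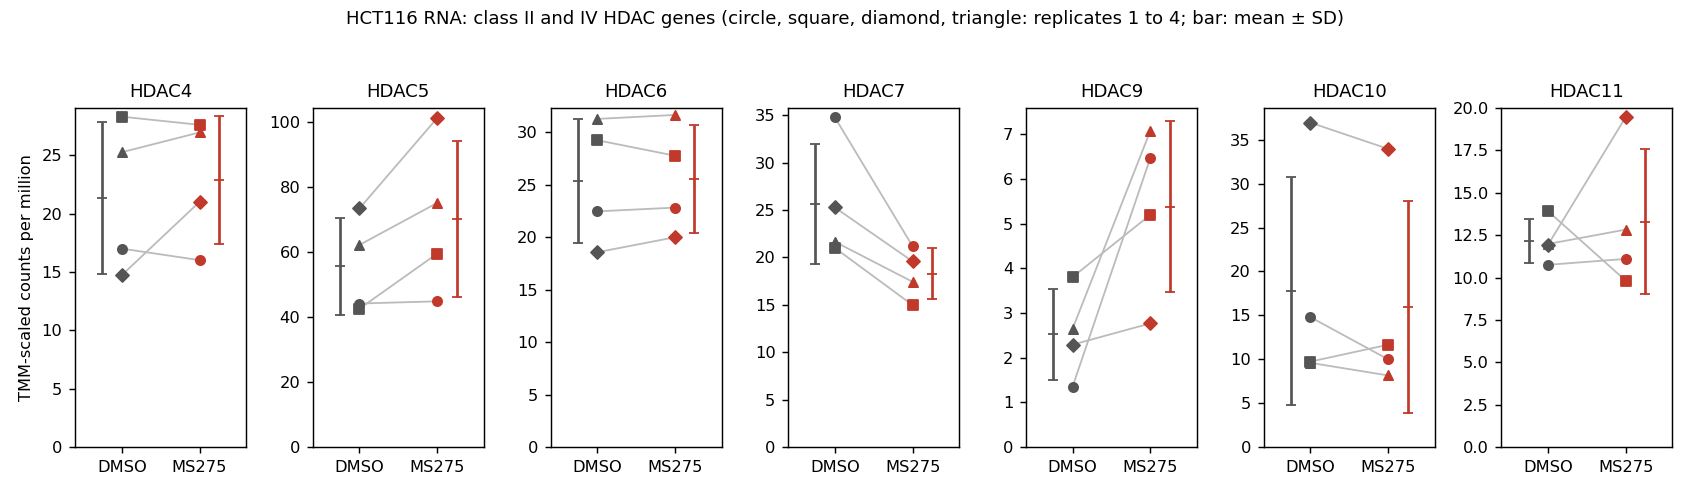
TMM-scaled CPM of the 7 genes in each HCT116 RNA library with DMSO (grey) or MS275 (red); lines join libraries of the same replicate number, and bars at the sides are the mean ± SD of 4 libraries. All 4 lines fall for HDAC7 and rise for HDAC5 and HDAC9, and replicate 3 of HDAC10 lies at 37.0 and 34.0 CPM, above all other libraries of that gene.

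The genes of class I, the class that the drug inhibits, were given the same fits. HDAC1 had a blocked log2 fold change of 0.063 (SE 0.060), HDAC2 of -0.076 (SE 0.062), HDAC3 of 0.14 (SE 0.077) and HDAC8 of 0.0059 (SE 0.20). None of the 4 was called in either fit (blocked adjusted p from 0.268 to 0.989).

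In the pathway around class IIa HDACs, MEF2C and the kinases CAMK1D and CAMK4 rose and the corepressor CTBP1 fell in the fit with the block. Without the block edgeR called no gene of the 5 lists that follow, and had 4, 2, 0, 1 and 2 of their genes at an unadjusted p under 0.05, in the order given. The counts below are with the block. Of 12 partners in repression, 4 rose and 1 fell (median log2 fold change 0.091, against 0.0081 over all genes). MEF2C, a transcription factor that class IIa HDACs hold in check, was at 4.90, 11.7, 6.05 and 9.39 CPM with DMSO and at 14.3, 19.7, 13.9 and 21.7 CPM with MS275, with no overlap, and rose 2.27-fold (blocked log2 1.18, SE 0.17, adjusted p = 0.00108; unpaired adjusted p = 0.351). CTBP1, a corepressor that binds the N-terminal part of class IIa HDACs, fell to 0.753-fold (adjusted p = 0.00270) and was lower in 4 of 4 pairs.

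Of 13 tested kinases that act on class IIa HDACs (14 in the list), 4 rose and none fell (median log2 fold change 0.13). CAMK4, a calcium/calmodulin-dependent kinase, was at 13.1, 15.8, 9.41 and 21.4 CPM with DMSO and at 27.8, 25.9, 18.4 and 30.0 CPM with MS275 and rose 1.77-fold (adjusted p = 0.00268). CAMK1D rose 1.94-fold (adjusted p = 9.38e-04) and the salt-inducible kinase SIK2 1.32-fold (adjusted p = 0.0204), each higher in 4 of 4 pairs. Of the 7 genes for 14-3-3 proteins, which hold phosphorylated class IIa HDACs in the cytoplasm, 2 fell and none rose (median -0.098): YWHAH (0.851-fold, adjusted p = 0.0349) and SFN (0.786-fold, adjusted p = 0.00929), while YWHAE had a log2 difference of -0.14 (SE 0.053, adjusted p = 0.0958). Unpaired, SFN had a log2 fold change of -0.32, and of 0.16 within the 5 libraries with mostly odd low counts.

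Of 7 tested MEF2 target genes (8 in the list), 3 rose and none fell (median 0.33). The immediate early gene JUN was at 22.6, 20.9, 14.8 and 18.9 CPM with DMSO and at 29.9, 29.6, 20.6 and 33.2 CPM with MS275 and rose 1.48-fold (adjusted p = 0.00990), and KLF6 rose 1.23-fold (adjusted p = 0.0309). KLF2 had groups without overlap but a log2 difference of 0.21 (SE 0.082) that did not pass the test (adjusted p = 0.115). Of 14 substrates and partners of HDAC6, 2 rose and 2 fell (median -0.058). The α-tubulin gene TUBA1A rose 1.72-fold (adjusted p = 0.00973), from 52.0, 52.1, 41.0 and 80.6 CPM to 71.3, 113, 110 and 86.6 CPM. TUBA1B, its close paralogue, named after its values were seen, went from 1163, 871, 1138 and 737 CPM to 1076, 738, 1061 and 608 CPM and fell to 0.888-fold (adjusted p = 0.0494), lower in 4 of 4 pairs. Its adjusted p was 0.0810, 0.138 and 0.288 without pair 1, 2 or 4, and reads that such copies share could be split between them. SQSTM1, an autophagy receptor for ubiquitinated proteins, fell from 470, 414, 476 and 404 CPM to 325, 356, 343 and 341 CPM (0.782-fold, adjusted p = 0.00516) without overlap. CTTN, which encodes cortactin, had a log2 difference of -0.20 (SE 0.069, adjusted p = 0.0741). Several of these calls depended on a pair. The blocked adjusted p of SFN was 0.0576 and 0.0512 without pair 1 or 4, and that of YWHAH 0.0629, 0.113, 0.0569 and 0.107 without pair 1, 2, 3 or 4. For SIK2 it was 0.0801, 0.105 and 0.123 without pair 1, 2 or 4, and for KLF6 0.102, 0.130 and 0.0825 without pair 1, 2 or 3. JUN was at 0.0935 without pair 4 and TUBA1A at 0.0912 without pair 2. The calls of MEF2C, CTBP1, CAMK4, CAMK1D and SQSTM1 held whichever pair was left out. These lists were chosen with earlier results of the data known, and called counts are to be read against the 14.4% of all genes.

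The patterns most like each member over the 8 HCT116 libraries, among genes with a mean of at least 100 counts, were found as a description. They were PSD4 (Pearson r = 0.985) and LMO2 (0.973) for HDAC4, ATP13A2 (0.972) and SRD5A3 (0.968) for HDAC5, PCMTD1 (0.994) and TMEM106B (0.988) for HDAC6, and MYBBP1A (0.987) and IPO4 (0.973) for HDAC7. For HDAC9 they were DAPK1 (0.983) and RSPRY1 (0.967), for HDAC10 RNF187 (0.994) and CDK10 (0.992), and for HDAC11 SBF1 (0.963) and MC1R (0.937).

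Histone marks were measured over all 7 members in HCT116, with 1 peak list for both marks and both treatments. Whether its peaks were called on single or pooled libraries, of which treatment, and against which input is not given in the sources used here, and the part of this choice in the share of peaks called lower was not tested. A peak was found in or within 2 kb of 73.4% of coding genes. HDAC4 had 12 peaks, HDAC9 10, HDAC5 and HDAC7 4 each, HDAC10 3, and HDAC6 and HDAC11 2 each, numbered here from the start of the gene. Of the 37 peaks, 10 lay within 1 kb of a GENCODE 44 start of a coding transcript of the member. With DMSO these 10 had 30.9 to 116 scaled H3K18cr reads per kb (median 58.6) and the other 27 had 26.3 to 94.9 (median 35.4). The ratio to input was 1.94 to 12.9 for H3K18cr and 1.504 to 18.98 for H3K18ac at starts, and highest at HDAC6 peak 2 (chrX:48801901-48803250) in both marks, where the DMSO input, 1 library, held 6.52 scaled reads. Per kb the reads with DMSO were highest at HDAC4 peak 1, with 116 for H3K18cr and 124 for H3K18ac, against 62.2 and 91.6 at HDAC6 peak 2.

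With MS275 the reads over start sites fell for 5 members in H3K18cr (HDAC4, HDAC5, HDAC6, HDAC7 and HDAC11) and for 4 in H3K18ac (HDAC4, HDAC5, HDAC6 and HDAC10), relative to the largest library to which the authors scaled all others. Such reads give the share of a mark at a peak and not its amount. In the paper, H3K18cr rose with MS275 in western blots and in ChIP-qPCR at promoters and repeats. The paper proposes that a relative drop over starts could come from a larger rise elsewhere in the genome, which was not tested here. Over all peaks the median log2 fold change was -0.20 for H3K18cr and -0.19 for H3K18ac, and centring each library on its median peak moved these to -0.0084 and -0.035, so that the drops are to be read against those medians. For H3K18cr limma called 11 of the 37 member peaks, all lower, against 23.2% of all tested peaks called and 23.0% called lower. For H3K18ac it called 9, all lower, against 16.6% called and 16.3% called lower. With centred libraries 8 member peaks were called lower in H3K18cr (13.5% of all peaks) and 10 in H3K18ac (20.0% of all peaks). With edgeR and TMM 7 and 9 were called lower, while the split of all peaks shifted to 11.6% lower and 2.45% higher in H3K18cr and to 16.9% lower and 4.88% higher in H3K18ac. At the 10 start peaks 6 fell in H3K18cr and 5 in H3K18ac, and at the other 27, 5 and 4 fell. Over all peaks, those within 1 kb of a start of any coding transcript were called lower in 55.1% of cases for H3K18cr and 43.2% for H3K18ac, and those farther away in 7.91% and 3.7%. By that definition 11 member peaks were at a start, since HDAC10 peak 3 lies over the start of its neighbour, and 7 and 6 of them were called lower, against 4 and 3 of the other 26. The 15 peaks whose MS275 libraries all lay below the DMSO libraries in H3K18cr compare with 29.9% of all peaks, and none lay above (3.15% of all). In H3K18ac 10 lay below (23.1% of all) and 2 above (3.34%), HDAC9 peaks 5 and 7. Both marks were called lower at 7 peaks (14.4% of all peaks tested in both), and at least 1 of them at 13 (25.1%). Leaving out a library gave 8 calls in H3K18cr without DMSO replicate 1, MS275 replicate 1 or MS275 replicate 2, and 16 without DMSO replicate 3. In H3K18ac it gave 12 without DMSO replicate 1, 6 without DMSO replicate 2, 5 without DMSO replicate 3, 3 without MS275 replicate 2 and 4 without MS275 replicate 3. HDAC4 peak 1 and HDAC6 peak 1 were called in both marks whichever library was left out.

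Among the 37 member peaks, the H3K18cr signal with MS275 was lowest relative to DMSO at HDAC4 peak 1, HDAC6 peak 1 and HDAC4 peak 6, at 50.5, 50.7 and 51.1%, which differ by less than their errors. HDAC4 peak 1 (chr2:239398351-239403150, 4800 bp over the gene's start and window 1) had 575, 583 and 507 scaled H3K18cr reads with DMSO and 265, 242 and 341 with MS275. No MS275 library reached the DMSO range, and the scaled reads fell to 50.5% of DMSO (log2 -0.99, SE 0.16, adjusted p = 5.88e-05). H3K18ac went from 478, 531 and 783 reads to 296, 244 and 278 reads, 46.6% of DMSO (log2 -1.10, SE 0.25, adjusted p = 4.86e-04). RNA of HDAC4 over the same 18 h had a log2 difference of 0.13 (SE 0.14), as given above.

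A pair of broad peaks lay deep inside HDAC4. Peak 7 (chr2:239243251-239269200), centred 145.4 kb into the gene and 25950 bp wide, was the 131st widest of the 40266 peaks; 0.335% of all peaks were as wide. Peak 6 (chr2:239269351-239280900), 11550 bp wide, was separated from it by a gap of 150 bp. No GENCODE 44 start of a coding transcript lay in them, but 2 RefSeq starts lay in peak 6, among them the CpG-poor window 3, and 1 in peak 7. H3K18cr at peak 6 was 1170, 1149 and 970 reads with DMSO and 503, 538 and 644 with MS275 (51.1% of DMSO, log2 -0.97, SE 0.15, adjusted p = 4.33e-05). At peak 7 it was 1959, 2038 and 1649 and 1109, 1103 and 1191 reads (60.5%, log2 -0.73, SE 0.15, adjusted p = 4.20e-04). H3K18ac fell to 54.6% at peak 6 (adjusted p = 0.00498) and to 64.0% at peak 7 (adjusted p = 0.0392). The H3K18ac call of peak 6 was lost without DMSO replicate 2, MS275 replicate 2 or MS275 replicate 3 (adjusted p = 0.0709, 0.107 and 0.0871). That of peak 7 was lost without these and without DMSO replicate 3 (adjusted p = 0.180, 0.291, 0.289 and 0.144). Of the 9 other HDAC4 peaks, all 3600 bp or narrower, only peak 4 (chr2:239318551-239321100) was called, in H3K18cr (log2 -0.54, SE 0.19, adjusted p = 0.0359; 0.185 with centred libraries, and 0.170, 0.0533, 0.162 and 0.147 without DMSO replicate 1, DMSO replicate 2, MS275 replicate 1 or MS275 replicate 2).

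**Figure D3:**
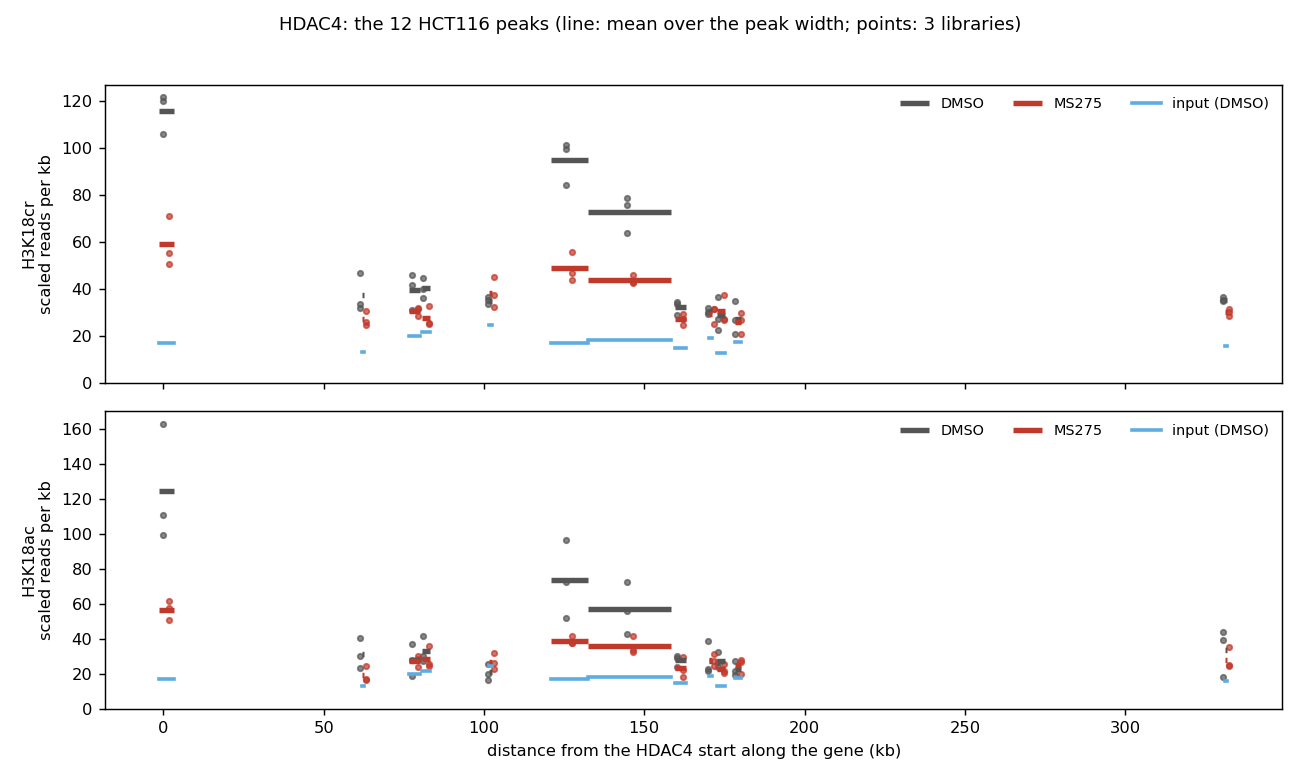
Scaled reads per kb in the 12 HDAC4 peaks of HCT116 against distance from the gene's start, for H3K18cr (top) and H3K18ac (bottom); lines span the peak width at the mean of 3 libraries with DMSO (grey) or MS275 (red), points are libraries, and blue is the DMSO input. The start peak and the 2 broad peaks near 126.5 and 145.4 kb carry the most reads with DMSO and lie lower with MS275, and of the 9 narrower peaks only peak 4 was called lower, in H3K18cr.

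Scaled reads of both marks fell over the start of HDAC6. HDAC6 peak 2 (chrX:48801901-48803250, over the start of window 2) had 97.4, 112 and 162 H3K18ac reads with DMSO and 59.7, 47.8 and 53.4 with MS275. That was 44.3% of DMSO, the lowest of the 37 peaks but within its error of the 46.6% at HDAC4 peak 1 (log2 -1.18, SE 0.25, adjusted p = 1.88e-04). Its H3K18cr was 55.3% of DMSO (adjusted p = 0.00566; 0.0654 with libraries centred on the median peak and 0.105 with edgeR and TMM, and 0.110 without MS275 replicate 1). The adjoining HDAC6 peak 1 (chrX:48800551-48801900) went from 61.0, 66.9 and 75.8 to 25.9, 38.2 and 40.7 H3K18cr reads (log2 -0.98, SE 0.22, adjusted p = 0.00145) and in H3K18ac fell to 47.9% (adjusted p = 6.74e-04). HDAC6 RNA, with pairs that differed by at most 0.11 on the log2 scale, showed no change that passed the test.

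HDAC5 peak 1 (chr17:44121451-44124750), over the start, fell from 234, 218 and 246 to 119, 132 and 177 H3K18cr reads (log2 -0.73, SE 0.17, adjusted p = 0.00201) and in H3K18ac by nearly the same log2 value (-0.73, SE 0.25, adjusted p = 0.0297). The H3K18ac call was lost without DMSO replicate 2 or 3 or MS275 replicate 2 or 3 (adjusted p = 0.152, 0.149, 0.220 and 0.194). The drop in H3K18cr stood beside RNA that was higher in 4 of 4 pairs. HDAC5 peak 3 (chr17:44094751-44098500), 27.1 kb into the gene, fell in H3K18cr to 63.1% (adjusted p = 0.00357; 0.0558 without MS275 replicate 2) and was at 68.9% in H3K18ac (adjusted p = 0.144).

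HDAC7 had no peak within 1 kb of the first base of its annotated interval. Its largest peak, peak 2 (chr12:47816401-47823000, 6600 bp), lay 13.4 kb into the gene over window 1, with 10 annotated starts of coding transcripts in it or within 1 kb. It went from 555, 486 and 370 to 352, 299 and 269 H3K18cr reads, without overlap (65.7% of DMSO, log2 -0.60, SE 0.17, adjusted p = 0.00652; 0.0774 with edgeR and TMM and 0.0748 without DMSO replicate 1). In H3K18ac it was at 69.7% and did not pass the test (adjusted p = 0.156; 0.0994 with edgeR and TMM), but was called lower with centred libraries (adjusted p = 0.0341). The other HDAC7 peaks had log2 fold changes from -0.30 to 0.14 in H3K18cr and none was called.

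HDAC10 peak 3 (chr22:50243851-50246550), at the distal end of HDAC10 and over the start of the neighbouring gene TUBGCP6, fell to 53.4% in H3K18cr (adjusted p = 3.04e-04) and 47.7% in H3K18ac (adjusted p = 8.44e-04), so it cannot be given to HDAC10 alone. HDAC10 peak 1 (chr22:50249851-50252250), over the start, was called in H3K18ac, where it fell from 120, 116 and 193 to 92.2, 69.3 and 65.0 reads (log2 -0.90, SE 0.25, adjusted p = 0.00482), and just missed the threshold in H3K18cr (log2 -0.50, SE 0.19, adjusted p = 0.0520). HDAC10 peak 2 (chr22:50247151-50249100) likewise fell in H3K18ac (adjusted p = 0.00817). Peaks 1, 2 and 3 all overlap the gene MAPK12 as well, so peaks 1 and 2 cannot be given to HDAC10 alone either. Without MS275 replicate 2 the H3K18ac values were an adjusted p of 0.0859, 0.116 and 0.0867 for peaks 1, 2 and 3. Without MS275 replicate 3 they were 0.0996 and 0.0860 for peaks 1 and 2, and without DMSO replicate 3 0.0635 and 0.0505. HDAC11 peak 1 (chr3:13479151-13481400), over the start, had nearly equal log2 fold changes in both marks, -0.57 (SE 0.18) and -0.57 (SE 0.25), of which the first passed the limma test (adjusted p = 0.0196 and 0.113). That call was lost with centred libraries (adjusted p = 0.117) and without DMSO replicate 1, MS275 replicate 1 or MS275 replicate 2 (adjusted p = 0.132, 0.136 and 0.0737).

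HDAC9 was the only member with no peak called by limma under the authors' scaling. HDAC9 peak 1 (chr7:18085951-18087600), over the CpG-rich window 1, had 87.0, 68.2 and 46.4 H3K18cr reads with DMSO and 69.7, 70.8 and 57.5 with MS275, and 50.9, 67.9 and 63.1 and 94.8, 49.5 and 56.6 H3K18ac reads. The groups overlapped in both marks (log2 0.015, SE 0.22, and 0.095, SE 0.25). HDAC9 peak 2 (chr7:18507901-18510000), 422.0 kb into the gene and over the CpG-free window 5, was at 89.8% and 119% of DMSO. The small HDAC9 peak 5 (chr7:18889651-18890400, 750 bp) had 15.8, 9.05 and 20.6 H3K18ac reads with DMSO and 20.8, 24.7 and 30.4 with MS275; its log2 fold change of 0.80 (SE 0.34, adjusted p = 0.0866) was called only when libraries were centred on the median peak (adjusted p = 0.0374) or scaled by TMM in edgeR (adjusted p = 0.0263).

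**Figure D4:**
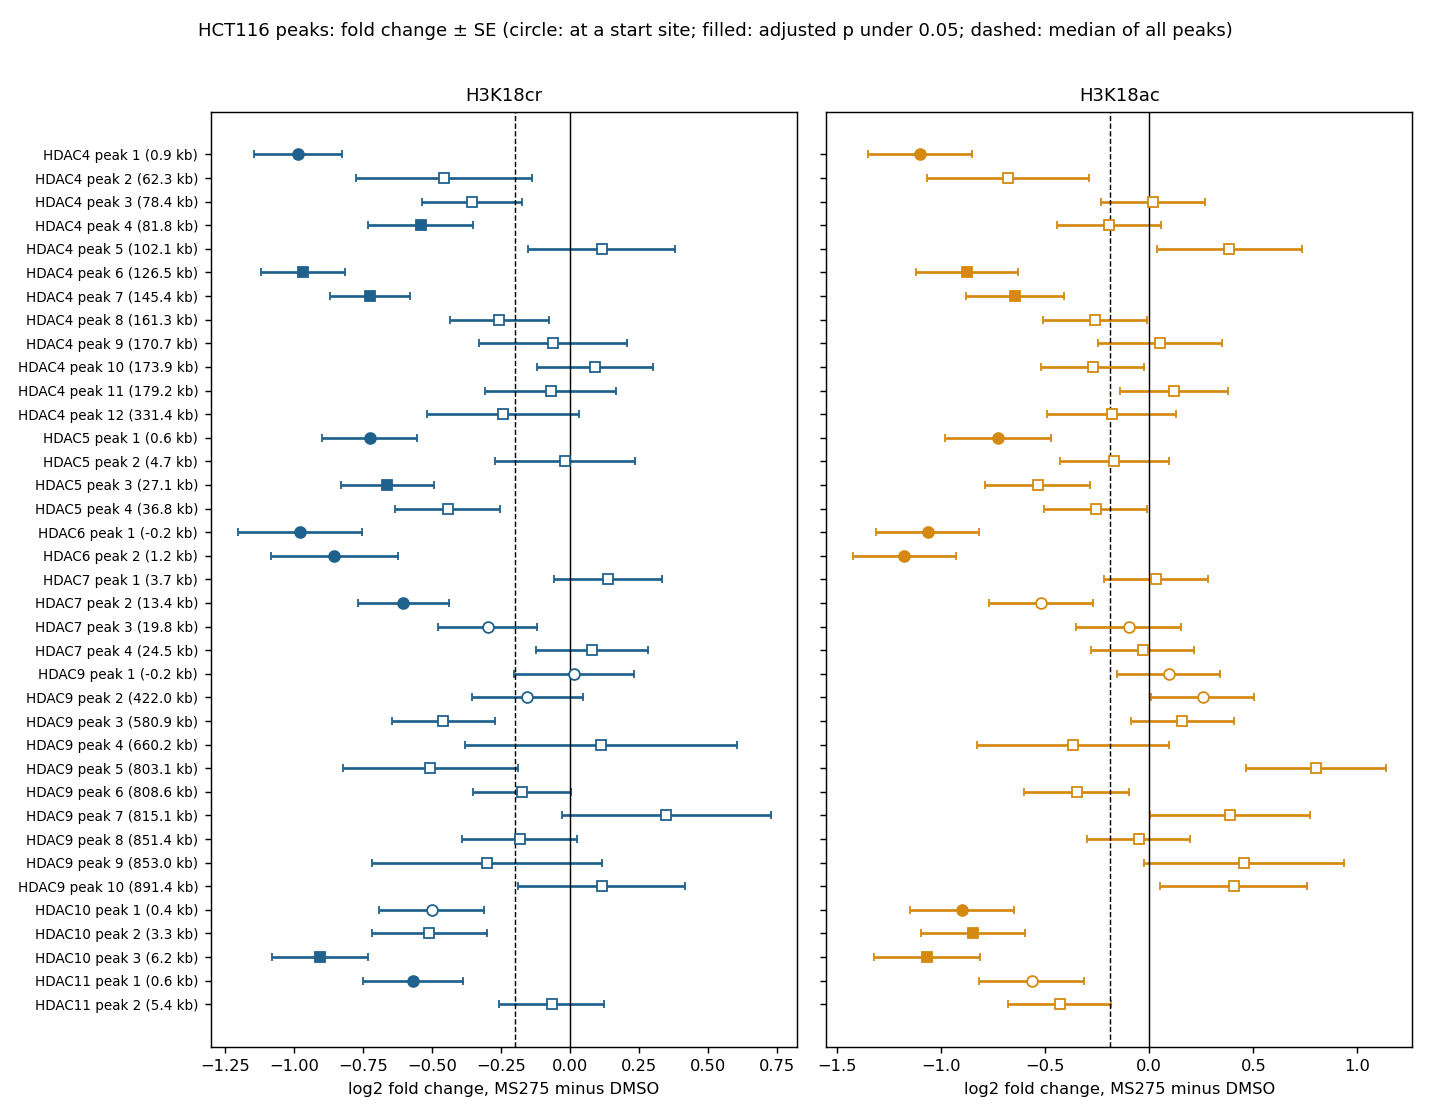
Log2 fold change (MS275 minus DMSO) ± SE of the 37 HCT116 peaks for H3K18cr (left) and H3K18ac (right), ordered by gene and by distance from its start, given in kb; circles are peaks at a start site, filled symbols have an adjusted p under 0.05 in limma, and the dashed line is the median of all peaks. The filled symbols lie between -0.99 and -0.54 for H3K18cr and between -1.18 and -0.64 for H3K18ac, and no HDAC9 peak is filled.

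The marks were compared with each other directly. The test of a different MS275 effect on H3K18cr and H3K18ac called 0.0% of the 40266 peaks and none of the members. At an unadjusted p under 0.05 there were 739 peaks (1.84%), among them HDAC9 peaks 3 and 5. These counts were unstable: without replicate 1, 2 or 3 there were 2479, 529 and 4331 peaks, and 1, 0 and 6 member peaks. Between the marks with DMSO, limma called 0.0% of peaks and no member, with 2767 peaks (6.87%) and 8 member peaks at an unadjusted p under 0.05. Leaving out replicate 1, 2 or 3 gave 3277, 815 and 8836 such peaks, and 3, 2 and 11 member peaks. Without replicate 3 the second comparison called 2792 peaks, 2671 of them higher and 121 lower in H3K18cr, and 6 member peaks, which were all higher in H3K18cr. Across the 37 peaks the log2 fold changes of the marks had a Pearson r of 0.71, as a description of peaks that share libraries within each mark.

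In the colon, H3K18cr peaks were found at 5 of the 7 members and H3K4me3, a mark of active starts, at 6; of all coding genes 57.4% and 69.8% had such a peak. The peaks were selected for enrichment by the peak caller, so the ratio to input is a description. Hdac5 peak 1 (chr11:102229201-102230850 for H3K18cr), over the start, had 135 and 224 scaled H3K18cr reads against 40 and 50.4 in the inputs, a mean log2 ratio of 1.93 ± 0.28 (SD, n = 2). The H3K4me3 peak over the same bases had 163, 276 and 388 reads against 18 in the input, a log2 ratio of 3.78 ± 0.63 (n = 3), above that of 99.5% of all H3K4me3 peaks. Hdac7, as in HCT116, carried its main peak 13002 bp into the gene: chr15:97830751-97832250 had a log2 H3K18cr ratio of 1.93 ± 0.38 and an H3K4me3 ratio of 2.82 ± 0.75.

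Hdac11, the most abundant member per kb of exon in the colon, had 1 H3K18cr peak over its start (chr6:91155901-91158150) with a log2 ratio of 1.41 ± 0.35, near the median of all peaks (1.31), and an H3K4me3 ratio of 2.61 ± 0.57. Hdac10 had both marks over its start (chr15:89127751-89129250), with ratios of 1.65 ± 0.65 and 1.58 ± 0.40, and over the neighbouring start of Tubgcp6. Hdac6 had H3K4me3 over its start (chrX:7947151-7948650, 57.5, 74.9 and 104 reads against 22 in the input) and no H3K18cr peak. Of the 15 H3K18cr peaks, 8 overlapped an H3K4me3 peak of a member; the 6 at Hdac4 did not, and they lay 3.4 to 147.6 kb inside the listed interval.

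The colon table places the start of Hdac4 at 92148393 of chromosome 1 and GENCODE M21 at 92195699, so the rule missed the annotated start. With the M21 intervals, chosen after seeing the data, the members had 19 H3K18cr peaks in 6 genes and 18 H3K4me3 peaks in 7. Hdac4 then gained an H3K4me3 peak at chr1:92179051-92181450 with 179, 286 and 366 reads against 45 in the input. It also gained 3 H3K18cr peaks. Of these, chr1:92179051-92180400 (108 and 173 reads against 32.0 and 58.0 in the inputs) and chr1:92180551-92181450 (58.8 and 98.9 against 23.0 and 51.9) lay within that H3K4me3 peak, over starts of coding transcripts, and chr1:92195701-92196900 (58.8 and 98.9 against 38.0 and 44.3) lay at the annotated start of the gene. Hdac9 gained an H3K4me3 peak at chr12:34906351-34907850 with 92.0, 158 and 249 reads against 26, and an H3K18cr peak there with 44.5 and 64.8 reads against 13 and 24.4, although its counted RNA was 3 to 9 reads a library.

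**Figure D5:**
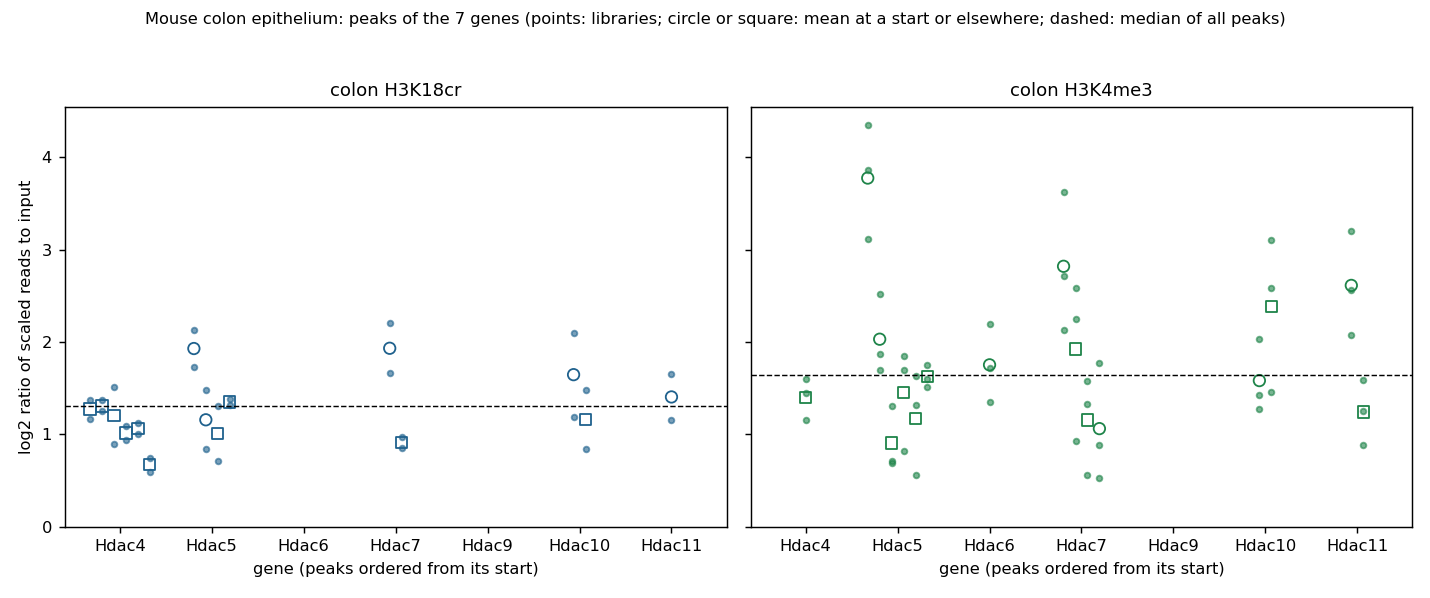
Log2 ratio of scaled reads to input in the colon peaks of the 7 genes, for H3K18cr (2 ChIP libraries) and H3K4me3 (3 ChIP libraries), with peaks of a gene ordered from its start; points are libraries, open circles are means of peaks at a start site, open squares means of other peaks, and the dashed line is the median of all peaks. Hdac5 reaches the highest H3K4me3 ratio (3.78) and Hdac9 has no peak in the listed interval.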

How the data were processed

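The authors trimmed reads with Trim Galore, aligned ChIP reads with Bowtie2 to GRCh38 or GRCm38, and counted in SEQMONK. They state HiSat2 for mouse RNA; the submitters' processing notes list TopHat2 (version 2.0.12), and the aligner of the human RNA is not given in the sources used here. The RNA tables hold raw read counts per gene, as deposited. The HCT116 ChIP table holds, as deposited, log2 values of reads per peak scaled to the largest library; the colon ChIP tables hold signal, the same scaled reads on a linear scale, as deposited. Peaks were called with MACS in SEQMONK, against input for H3K4me3; the libraries and reference used for the other lists are not given in the sources used here.

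RNA counts were fitted across all genes with the quasi-likelihood test of edgeR 4.0.16 (TMM, filterByExpr), with and without a replicate block, and with DESeq2 1.42.0. Deviations of same-numbered libraries correlated at 0.15 to 0.46 in 4 of 4 pairs, so the numbers were taken as pairs. Other combinations ranged from -0.42 to 0.24, and DMSO replicate 2 with MS275 replicate 4 (0.24) and DMSO replicate 4 with MS275 replicate 2 (0.22) were above pair 2 (0.15). HCT116 peaks averaging 10 reads or more were fitted with limma 3.58.1 (trend). P-values were adjusted by Benjamini-Hochberg over all genes or peaks, and calls made at an adjusted p under 0.05. Levels are CPM of library totals per kb of GENCODE exons within the listed interval; colon ratios add 1 read to ChIP and input. Start sites came from GENCODE 44 and M21, and the listed intervals of all 7 human genes equal those of GENCODE 44. Start sequences came from RefSeq (GRCh38.p14). The edgeR fits of RNA and the limma fit of MS275 against DMSO were checked on simulated data without a pair effect. DESeq2, the block in limma, the comparisons between marks and edgeR on ChIP reads were not checked in this way. Reads recovered from the log2 values were whole in 100% of cases (within 0.02 of a read, in proportion to the value above 500 reads) and served edgeR as an alternative. Members, lists and tests were chosen with earlier results of these data known. The genes named are the members, the class I genes, at most the 3 of each list with the smallest unadjusted p in the RNA fit, and the 2 most correlated with each member; 1 gene that this rule names is not reported here.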

Additional observations from a re-analysis of the deposited data

Results flagged for a closer look

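HDAC10 RNA in MS275 replicate 3, at 34.0 TMM-scaled CPM, stood farther from the other 3 MS275 libraries (8.15 to 11.7 CPM) than Dixon's 95% critical value for 4 samples allows. Chance alone flags about 1 group in 20, and 14 groups of members were examined. DMSO replicate 3 was the highest of its group as well, at 37.0 CPM, without passing that limit.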

How the results depend on the processing

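The replicate block, with numbers taken as pairs in the RNA, raised the RNA members called from 0 to 2, and DESeq2 with the block called 3, while DESeq2 without it, library totals without TMM, no filter on low counts and leaving out any 1 library called 0. With the block, leaving out a pair gave 0 to 2 members. Direction changed for values near 0: the log2 fold change of HDAC8 was 0.0059 with the replicate block and 0.00083 with DESeq2 and the block. With a term for libraries of mostly odd low counts, chosen after seeing the data, HDAC4 was at -0.041, HDAC6 at -0.059 and HDAC10 at 0.19; within the 5 libraries of mostly odd low counts, HDAC4 was at -0.059, HDAC6 at -0.17, HDAC10 at 0.94, HDAC1 at -0.051 and SFN at 0.16. The cause was not tested. Leaving out 1 library, the unpaired log2 fold change crossed 0 for HDAC4 (-0.016 to 0.28), HDAC6 (-0.094 to 0.13), HDAC10 (-0.86 to 0.52), HDAC11 (-0.11 to 0.25), HDAC2 (-0.16 to 0.019), HDAC3 (-0.0083 to 0.25) and HDAC8 (-0.22 to 0.12), and leaving out a pair under the block for HDAC4 (-0.010 to 0.20), HDAC6 (-0.013 to 0.045), HDAC11 (-0.12 to 0.28) and HDAC8 (-0.22 to 0.22).

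Same-numbered ChIP libraries correlated at 0.11, 0.074 and 0.23 for H3K18cr and at -0.21, 0.049 and -0.13 for H3K18ac, and the main fits took no pairs. The paper used a paired t-test for these marks over starts, so a block by replicate number was the alternative. With that block, 12 member peaks were called for H3K18cr and 2 for H3K18ac (HDAC6 peaks 1 and 2, adjusted p = 0.0378 and 0.0288; HDAC4 peak 1 was at 0.0699), against 11 and 9. TMM with edgeR called 7 for H3K18cr; leaving out 1 library gave 8 to 16 for H3K18cr, 3 to 12 for H3K18ac, and 0 to 6 peaks that differed between the marks with DMSO. With edgeR and TMM the direction turned at 8 of 35 member peaks in H3K18cr and 5 of 35 in H3K18ac, and with centred libraries at 7 and 3 of 37, none of them called in that mark under the scaling of the authors. Among start and called peaks, with edgeR and TMM HDAC9 peak 2 turned to 0.13 in H3K18cr, and HDAC4 peak 4 to 0.048 and HDAC7 peak 3 to 0.14 in H3K18ac; with centred libraries HDAC9 peak 2 was at 0.037 and HDAC7 peak 3 at 0.053, as both settings remove the shift of the median peak. Leaving out 1 library, HDAC9 peak 1 ranged from -0.23 to 0.22 in H3K18cr and -0.19 to 0.28 in H3K18ac, and HDAC7 peak 3 from -0.18 to 0.031 in H3K18ac. The median log2 H3K4me3 ratio of the colon peaks was 1.24 with 10 in place of 1 added read, against 1.605. Among single genes and peaks, settings that keep all libraries were counted together with the setting of the 5 libraries of mostly odd low counts alone. They left direction and call as they were in 269 cases, added a call in 34, ended 1 in 14, turned the direction in 15 and moved an untested value in 1. Settings that leave out 1 library or pair did so in 422, 7, 48, 27 and 0 cases.

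HDAC9 in HCT116, at 60 to 304 reads a library, and Hdac9 in the colon, at 3 to 9, are limited by depth. MS275 and DMSO inputs are 1 library each, and the H3K4me3 input is 1. ChIP values are relative to the largest library, so a global change of a mark cannot be measured. HDAC10 shares exon bases with MAPK12.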
